A study of Homo sapiens with 8 samples.

Results

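The miR-532, miR-188 and miR-660 cluster is a run of miRNA hairpins in an intron of CLCN5, a gene on the X chromosome that encodes an endosomal chloride and proton exchanger. It was described here by 10 mature miRNA names of these hairpins, with no threshold on their values: hsa-miR-532-5p, hsa-miR-532-3p, hsa-miR-188-5p, hsa-miR-188-3p, hsa-miR-362-5p, hsa-miR-500a-3p, hsa-miR-501-3p, hsa-miR-502-3p, hsa-miR-660-5p and hsa-miR-660-3p, written without the species prefix hereafter. They are 10 of the 1818 mature names with a read in any library, and all 10 were listed in each of the 8 libraries. All 10 passed the filter on low counts, as did 625 of the 1818 names.

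The libraries came from HCT116, an established human colorectal carcinoma cell line, and each group is named for the DICER that rescued the cells. The groups were R1855L rescue, R821H rescue, R1003Q rescue and WT rescue, with 2 libraries each, and the labels name no other treatment, time or allele. The sources used here do not give what the cells were before the rescue, whether each rescue is 1 clone or a pool, or how DICER was expressed. Replicates are not labelled as separate cultures either, and the p-values therefore cover only a spread among libraries that may be technical. The libraries were made by AQ-seq, a small-RNA method with reduced ligation bias.

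DICER, an RNase III enzyme, cuts a precursor hairpin into a duplex of a 5p and a 3p strand. One strand is then usually kept in an Argonaute protein, where bases 2 to 8, the seed, pair with target messages. Hairpins of one cluster are often cut from a shared primary transcript. The R1855 residue lies in the C-terminal double-stranded RNA-binding domain of DICER, while R821 and R1003 lie in the platform and PAZ region that holds the ends of the hairpin. The question put to the cluster is whether its levels and strand ratios differ between each substitution and WT.

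The sequences below show how closely the members resemble each other and where their seeds differ, with the seed in capitals. They are from RefSeq (GRCh38.p14), where 9 of the 10 members and all 6 other mature names of the same hairpins matched.
miR-532-5p: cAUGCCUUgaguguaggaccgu
miR-532-3p: cCUCCCACacccaaggcuugca
miR-188-5p: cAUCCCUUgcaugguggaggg
miR-188-3p: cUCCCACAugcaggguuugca
miR-362-5p: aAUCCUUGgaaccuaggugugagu
miR-500a-3p: aUGCACCUgggcaaggauucug
miR-501-3p: aAUGCACCcgggcaaggauucu
miR-502-3p: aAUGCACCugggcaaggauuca
miR-660-3p: aCCUCCUGugugcauggauua
The remaining strands of these hairpins complete the pairs used for the strand ratios.
miR-362-3p: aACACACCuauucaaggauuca
miR-500a-5p: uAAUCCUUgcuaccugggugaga
miR-501-5p: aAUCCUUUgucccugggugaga
miR-502-5p: aUCCUUGCuaucugggugcua
miR-500b-5p: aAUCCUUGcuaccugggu
miR-500b-3p: gCACCCAGgcaaggauucug

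The members fall into a few sequence groups. The 5p strands of miR-532 and miR-188 start with C, and those of miR-362, miR-501, miR-502 and miR-500b start with A. miR-501-3p and miR-502-3p share the seed AUGCACC and differ by C9U and U22A, written from miR-501-3p to miR-502-3p with positions counted from the 5′ end. miR-500a-3p has a run of 20 bases in common with miR-502-3p but starts 1 base later in it, so its seed is UGCACCU. miR-362-5p shares the seed AUCCUUG with miR-500b-5p. No other tested name of the 542 with a RefSeq sequence had a seed of the 15 printed above. Such near-identical strands can share reads, and the levels of miR-500a-3p, miR-501-3p and miR-502-3p are therefore uncertain as separate values.

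The hairpins MIR532 and MIR188 are shown whole, with the mature strands in capitals, because their strand ratios had the widest changes of the 7 tested in R1855L against WT, 1.22 and -1.20.
MIR532: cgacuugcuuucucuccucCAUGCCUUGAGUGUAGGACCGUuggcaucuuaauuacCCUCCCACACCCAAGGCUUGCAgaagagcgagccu
MIR188: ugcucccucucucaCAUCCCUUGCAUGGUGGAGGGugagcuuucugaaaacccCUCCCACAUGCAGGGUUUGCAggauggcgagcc
In RefSeq GRCh38.p14 MIR532 lies on the plus strand at chrX:50003148-50003238 and MIR188 at chrX:50003503-50003588. The mature strands are 15 bases apart in MIR532 and 18 in MIR188.

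In GENCODE release 29 (GRCh38) the cluster holds 8 hairpins over 11536 bases, in the order MIR532, MIR188, MIR500A, MIR362, MIR501, MIR500B, MIR660 and MIR502. MIR188 begins 355 bases after MIR532, the next hairpin follows 5283 bases after MIR532, and MIR660 and MIR502 stand at the far end, 10093 and 11450 bases away. CLCN5 runs on the same strand at chrX:49922615-50099235. Of its 9 annotated transcripts 3 span each hairpin, which lies inside an intron of these, with no exon overlap.

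**Figure D1:**
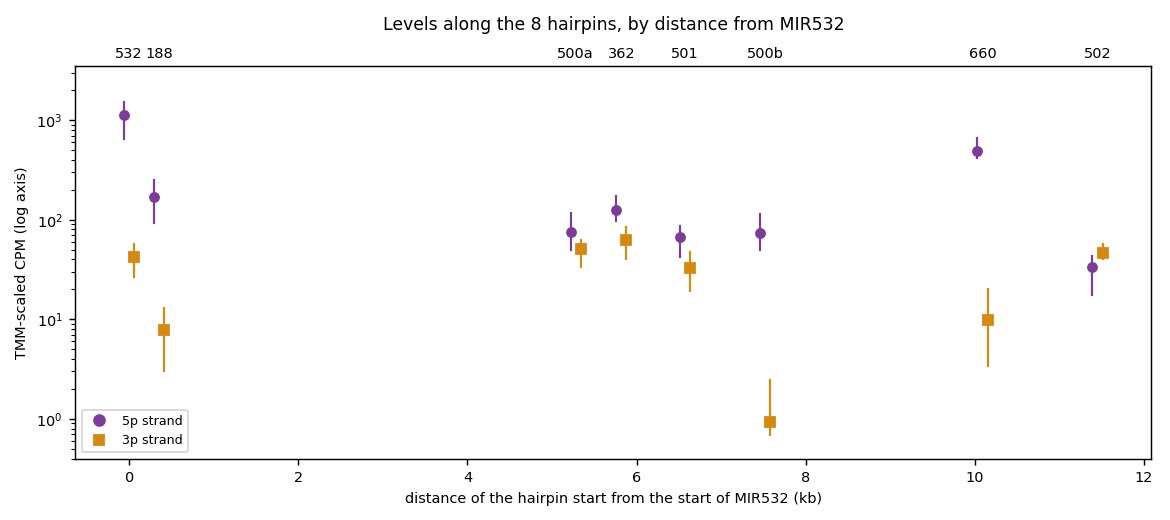
Mean level of the 5p and 3p strand of each hairpin over the 8 libraries (TMM-scaled CPM, log axis) against distance from the start of MIR532 in kb, with lines from the lowest to the highest library above 0. miR-532-5p and miR-660-5p stand at 1122 and 489 CPM on average, while both strands of the hairpins between 5.28 and 6.57 kb are at 32.5 to 125 CPM.

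Facts of the whole series bear on the values as follows. Library totals were between 462805 and 4269231 reads, and libraries with 2241881 reads or more (R1855L replicate 1, R821H replicate 1 and WT replicate 2) are called deep and the other 5 shallow. Both R1003Q libraries were shallow. Of the colorectal markers, miR-21-5p, a miRNA abundant in carcinomas, and miR-31-5p, one of colorectal tumours, had at least 248462 and 35326 CPM in every library, and miR-200c-3p, an epithelial miRNA, 18.2 to 48.2 CPM. Among markers of other cells, miR-206 of muscle had at most 1 read and was at 0 in 6 libraries, and miR-223-3p of myeloid cells had 2 to 9 reads. The other muscle markers, miR-1-3p and miR-133a-3p, had at most 3 reads and 3 to 23 reads, and miR-150-5p of blood cells had 2 to 10. Others were well above that: miR-9-5p of neurons was at 453 to 1186 CPM (miR-124-3p of neurons at most 1.84 CPM), miR-145-5p of smooth muscle and fibroblasts at 562 to 758 CPM, miR-142-3p and miR-451a of blood cells at 284 to 383 and 111 to 333 CPM, and miR-122-5p of liver at 67.4 to 118 CPM. miR-486-5p of blood cells was at 27.2 to 252 CPM and miR-143-3p of smooth muscle and fibroblasts at 22.9 to 49.7 CPM. Summed, the 5 blood markers were at 735 to 795 CPM in R1855L, 563 to 696 CPM in R821H, 552 to 576 CPM in R1003Q and 620 to 651 CPM in WT. Whether these markers play a part in the results on the cluster was not tested.

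The cluster was a small part of each library. The 10 members took between 0.182% and 0.235% of the reads of a library, and 28109 reads in all. Their summed level was 2589 and 1972 CPM in R1855L, 2095 and 2097 CPM in R821H, 2173 and 2191 CPM in R1003Q, and 1625 and 2018 CPM in WT (replicates 1 and 2). CPM is a count relative to the total of its library, with totals scaled by the trimmed mean of M values (TMM). The sums of R821H and R1003Q lay above both WT libraries, whereas those of R1855L lay on both sides of the higher WT library. As a share of all reads, without TMM, the members took 0.235% and 0.232% in R1855L and 0.184% and 0.209% in R821H. They took 0.213% and 0.228% in R1003Q, and 0.188% and 0.182% in WT. By that share R1855L and R1003Q lay above both WT libraries and R821H overlapped WT, so the placement depends on the scaling.

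miR-532-5p and miR-660-5p carried most of the cluster, with 77.6% of the members' reads over the 8 libraries. By mean level over the 8 libraries the order was miR-532-5p (1122 CPM, place 86 of all 1818 names), miR-660-5p (489 CPM, place 139), miR-188-5p (170.3 CPM, place 217) and miR-362-5p (125 CPM, place 246). The 3p members of the miR-500 group followed with miR-500a-3p (50.3 CPM), miR-502-3p (46.4 CPM) and miR-501-3p (32.5 CPM), with miR-532-3p (42.0 CPM) among them. The ranges of these 4 over the libraries overlapped. The lowest were miR-660-3p (9.74 CPM) and miR-188-3p (7.81 CPM), whose 8 libraries also overlapped in range. The limit that a count of 0 allows, 3 reads, lay between 0.78 CPM in WT replicate 2 and 5.52 CPM in R1855L replicate 2. miR-188-3p had exactly 3 reads in R1855L replicate 2, and miR-660-3p had 3 in R1003Q replicate 2.

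R1855L had less miR-188-5p than WT, and this was the only member called in any mutant against WT. miR-188-5p, which in mouse bone marrow favours fat over bone formation, was at 92.9 and 93.8 CPM in R1855L, 158 and 166 CPM in R821H, 190.4 and 213 CPM in R1003Q, and 249 and 199 CPM in WT. Both R1855L libraries were below the other 6, and the R821H libraries were below both WT libraries, while R1003Q and WT overlapped. Its mean was 93.4 ± 0.637 CPM in R1855L and 224 ± 35.3 CPM in WT (SD, n = 2 each). The log2 fold change of R1855L against WT was -1.26 (SE 0.24, edgeR adjusted p = 0.0274), a 2.40-fold lower fitted level. In such bulk libraries, fewer cells with the miRNA and less of it per cell cannot be told apart. The deep libraries alone gave a log2 ratio of -1.10 and the shallow libraries alone -1.40.

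The call on miR-188-5p rests on a shared estimate of spread from all 8 libraries. It was lost on leaving out WT replicate 1 (log2 fold change -1.09, edgeR adjusted p = 0.132), R1855L replicate 1 (-1.37, adjusted p = 0.0965) or R1855L replicate 2 (-1.29, adjusted p = 0.0907), on leaving out any R821H or R1003Q library (-1.31 to -1.32, adjusted p from 0.0543 to 0.0867), with the replicate number as a block (-1.26, adjusted p = 0.0791), with total counts as the scaling (-1.27, adjusted p = 0.105) and with only the 4 libraries compared (-1.27, adjusted p = 0.188). It was kept on leaving out WT replicate 2 (-1.499) and by DESeq2 (-1.28, adjusted p = 0.00111), which called 8.32% of all names. In edgeR it was also kept with median-ratio size factors (-1.285, adjusted p = 0.0299) and with no filter (-1.39, adjusted p = 0.00816). The same held for a filter at a mean of 50 CPM (edgeR adjusted p = 0.0158), which called 8.58% of its names. It held too for a depth term (edgeR adjusted p = 8.18e-05), which called 28.3%.

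Over all tested names, 5.76% were called in R1855L against WT and 5.44% were called lower, so 1 of 10 members called lower is a count near the background. In edgeR 2 of the 10 members had an unadjusted p under 0.05, as did 115 of all 625 names. The members' median log2 fold change was 0.14, beside 0.13 over all 625 names. Of the 10 members 4 had both R1855L libraries above both WT libraries and 2 had both below, against 21% and 21.4% of all tested names. How many tested names had both R1855L libraries apart from all other libraries, or every mutant library apart from both WT libraries, was not counted. Where such placements of levels are given, above or below, they stand without a background.

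**Figure D2:**
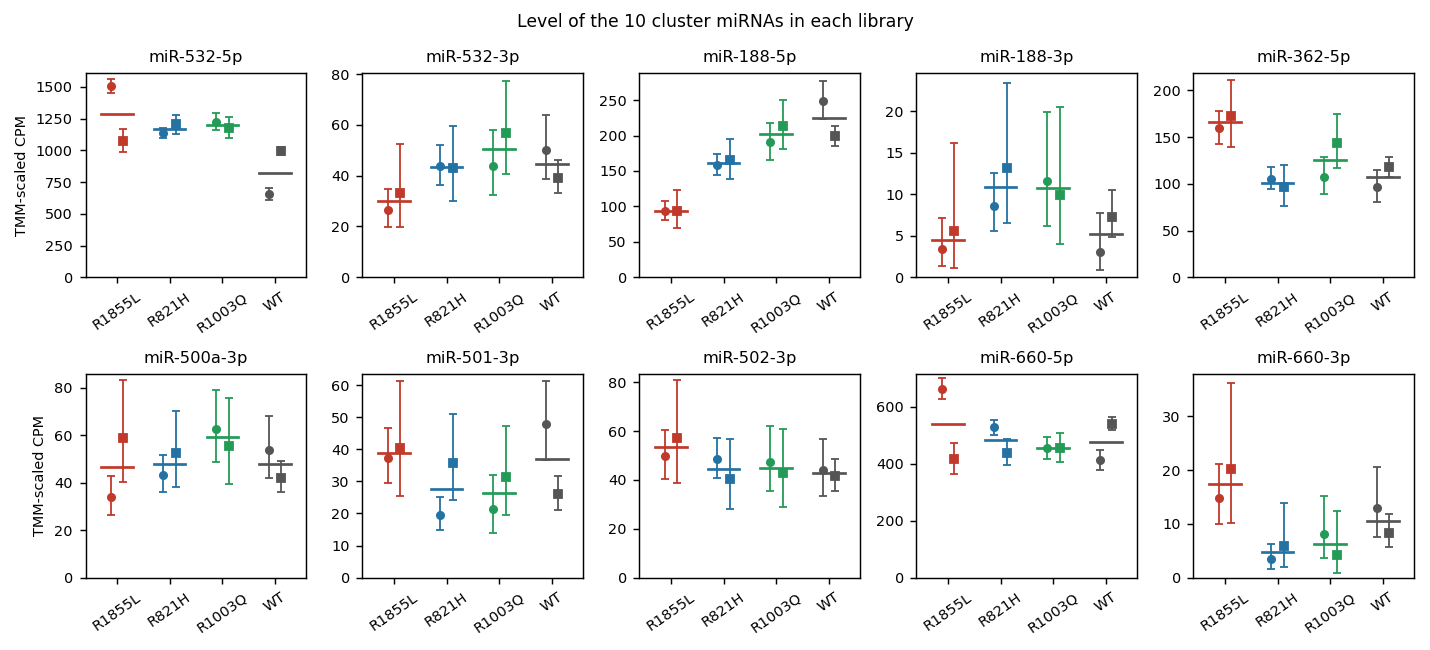
Level of each of the 10 members in each library (TMM-scaled CPM), with circles for replicate 1, squares for replicate 2, a line at the mean and bars for the exact Poisson 95% interval, which covers counting error only. miR-188-5p stands at 92.9 and 93.8 CPM in R1855L, below every other library, and miR-532-5p is lowest in the WT libraries, at 655 and 995 CPM.

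miR-532-5p, which is reported to repress the transcription factor RUNX3 in gastric cancer cells, was at 1506 and 1075 CPM in R1855L, 1137 and 1205 CPM in R821H, 1227 and 1179 CPM in R1003Q, and 655 and 995 CPM in WT. Every mutant library was above both WT libraries. None of the comparisons passed adjustment, with log2 fold changes of 0.65 in R1855L (SE 0.29, edgeR adjusted p = 0.282), 0.50 in R821H (SE 0.29, adjusted p = 0.994) and 0.54 in R1003Q (SE 0.29, adjusted p = 0.857). All these comparisons use the same pair of WT libraries. Without WT replicate 1 they were 0.38, 0.23 and 0.27 in R1855L, R821H and R1003Q, and without R1855L replicate 1 the value of R1855L was 0.28. With a term for depth in the model, R1855L against WT passed (log2 0.65, adjusted p = 0.00839), in a fit that called 177 of all 625 names, or 28.3%.

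Its partner miR-532-3p was at 26.6 and 33.1 CPM in R1855L, 43.7 and 42.9 CPM in R821H, 43.8 and 56.9 CPM in R1003Q, and 50.1 and 39.3 CPM in WT. Both R1855L libraries were below the other 6. The log2 fold change of R1855L against WT was -0.60 (SE 0.31) and did not pass (edgeR adjusted p = 0.36).

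miR-660-5p, reported to target MDM2 in lung cancer cells, was at 664 and 416 CPM in R1855L, 528 and 439.5 CPM in R821H, 454 and 455 CPM in R1003Q, and 413 and 540.5 CPM in WT. These values overlapped between all groups, and the deep library was the higher one in R1855L, R821H and WT. Its log2 fold change in R1855L was 0.18 (SE 0.28, edgeR adjusted p = 0.765), and without R1855L replicate 1 it was -0.30.

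miR-660-3p was at 14.8 and 20.2 CPM in R1855L, 3.41 and 5.96 CPM in R821H, 8.05 and 4.27 CPM in R1003Q, and 12.9 and 8.32 CPM in WT. These levels rest on 30 and 11 reads in R1855L, 10 and 5 in R821H, 9 and 3 in R1003Q, and 17 and 32 in WT. Both R1855L libraries were above the WT libraries, and the R821H and R1003Q libraries were below them. Against WT the log2 fold changes were 0.71 (SE 0.48, edgeR adjusted p = 0.487) in R1855L, -1.25 (SE 0.53, adjusted p = 0.994) in R821H and -0.68 (SE 0.54, adjusted p = 0.88) in R1003Q.

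miR-362-5p, reported to repress the deubiquitinase CYLD in liver cancer cells, was at 159.8 and 173 CPM in R1855L, 105 and 96.5 CPM in R821H, 107 and 144 CPM in R1003Q, and 96.5 and 118 CPM in WT. Both R1855L libraries were above the other 6. Its log2 fold change of 0.63 in R1855L (SE 0.26) had an edgeR adjusted p = 0.27, and 0.0392 (log2 0.62) in the fit with the depth term that called 28.3% of all names. In R821H and R1003Q the log2 fold changes were -0.09 (SE 0.26) and 0.22 (SE 0.26).

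miR-188-3p was at 3.44 and 5.52 CPM in R1855L, 8.53 and 13.1 CPM in R821H, 11.6 and 9.95 CPM in R1003Q, and 3.04 and 7.28 CPM in WT. Behind these levels stand 7 and 3 reads in R1855L, 25 and 11 in R821H, 13 and 7 in R1003Q, and 4 and 28 in WT. The R821H and R1003Q libraries were above both WT libraries, with log2 fold changes of 0.89 (SE 0.53) and 0.95 (SE 0.56) that did not pass (edgeR adjusted p = 0.994 and 0.857). These were 0.50 and 0.57 without WT replicate 1, and 1.67 and 1.71 without WT replicate 2. R1855L overlapped WT (log2 -0.44, SE 0.62), and without WT replicate 2 the value was 0.34.

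None of the 3p members of the miR-500 group was called. miR-502-3p was at 49.7 and 57.0 CPM in R1855L, 48.4 and 40.5 CPM in R821H, 47.4 and 42.7 CPM in R1003Q, and 44.1 and 41.6 CPM in WT, so both R1855L libraries were above the other 6. miR-500a-3p ranged from 33.9 CPM in R1855L replicate 1 to 62.6 CPM in R1003Q replicate 1. miR-501-3p, which in rat neurons represses the glutamate receptor subunit GluA1, ranged from 19.4 CPM in R821H replicate 1 to 47.9 CPM in WT replicate 1. In R1855L against WT their log2 fold changes were 0.31 (SE 0.27) for miR-502-3p, -0.09 (SE 0.35) for miR-500a-3p and 0.09 (SE 0.44) for miR-501-3p, and the smallest edgeR adjusted p of the 3 was 0.603. The signs of miR-500a-3p and miR-501-3p turned on leaving out single libraries.

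**Figure D3:**
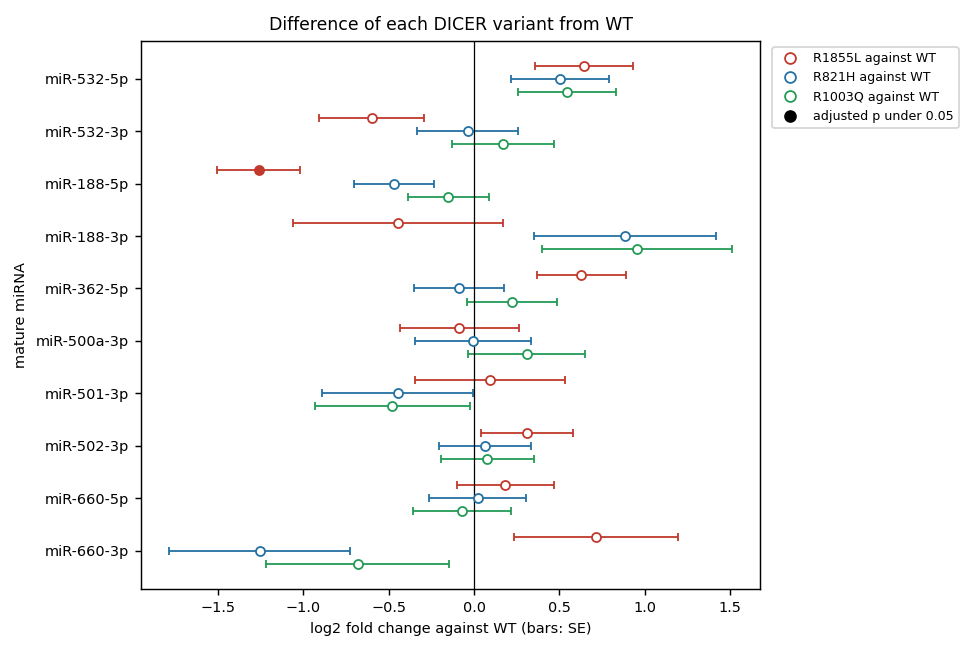
Log2 fold change of each mutant against WT for the 10 members, with bars for the SE. Only miR-188-5p in R1855L, at -1.26, is filled as called at an adjusted p under 0.05, and the R1855L values run from -1.26 to 0.71.

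Of the other 6 mature names of the hairpins, 5 were tested and none was called in R1855L. In edgeR 3 of the 5 had an unadjusted p under 0.05 against WT, beside 115 of all 625 names. Both R1855L libraries were above both WT libraries for 4 of the 5 and below for 0, beside 21% and 21.4% of all tested names. These counts include both miR-500a-5p and miR-500b-5p. miR-500a-5p was at 91.0 and 116 CPM in R1855L, 64.1 and 85.8 CPM in R821H, 52.8 and 76.8 CPM in R1003Q, and 49.4 and 61.1 CPM in WT, so both R1855L libraries were above the other 6. Its log2 fold change in R1855L was 0.89 (SE 0.32, edgeR adjusted p = 0.194). miR-501-5p had 0.73 (SE 0.31), miR-502-5p 0.65 (SE 0.35) and miR-362-3p 0.12 (SE 0.36). miR-500b-5p, whose 18 bases are contained in the 23 bases of miR-500a-5p, had the same read count as miR-500a-5p in 7 of 8 libraries and 62 against 63 reads in R1855L replicate 2, so it is not a separate measurement. miR-500b-3p had at most 5 reads and was not tested.

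Over both lists, 7 of the 8 tested 5p names of the cluster had a log2 fold change above 0 in R1855L, with a median of 0.65, and miR-188-5p was the exception. Among all 268 tested 5p names, 65.3% were above 0 and the median was 0.22. The 7 tested 3p names of the cluster had a median of 0.09, beside -0.06 over all 243 tested 3p names. The 5p names of the cluster include miR-500a-5p and miR-500b-5p, whose counts are nearly the same.

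In R821H and R1003Q no member was called against WT, and the background was 0% of tested names in both. edgeR called 0 members in R821H and 0 in R1003Q, and so did DESeq2. At an unadjusted p under 0.05 edgeR had 1 in R821H (miR-660-3p) and 0 in R1003Q, beside 20 and 31 of all 625 names. Both libraries were above both WT libraries for 2 members in R821H and 3 in R1003Q, and below them for 2 and 1, where 15.4% and 22.9% of all tested names were above and 13.1% and 17.8% below. The members' log2 fold changes ran from -1.25 to 0.89 in R821H with a median of -0.02, beside 0.04 over all tested names. In R1003Q they ran from -0.68 to 0.95 with a median of 0.12, beside 0.06. miR-188-5p had -0.47 (SE 0.24, edgeR adjusted p = 0.994) in R821H and -0.15 (SE 0.24, adjusted p = 0.921) in R1003Q.

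Between mutants, edgeR called no member. For R821H against R1855L 0 members passed and 3 had an unadjusted p under 0.05, as did 93 of all 625 names, and 3.84% of all tested names were called, made up of 3.52% higher and 0.32% lower. For R1003Q against R1855L 0 passed and 3 had an unadjusted p under 0.05, as did 92 of 625, and 3.68% of all tested names were called. In both pairs 3 members had both libraries above R1855L and 4 had both below, where 20.6% and 24.3% of all tested names were above and 17.3% and 20.6% below. For R1003Q against R821H 0 passed, 0 had an unadjusted p under 0.05 beside 10 of 625, and 0% of all names were called. Its members ran from -0.09 to 0.57, with 4 above and 0 below without overlap, beside 19.7% and 16.8% of all tested names. DESeq2 called 0, 1 and 0 members in these 3 pairs, beside 39, 40 and 0 of all 625 names. miR-188-5p had a log2 fold change of 0.79 (SE 0.24, edgeR adjusted p = 0.157) in R821H against R1855L and 1.11 (SE 0.24, adjusted p = 0.057) in R1003Q against R1855L. The last of these passed by DESeq2 (log2 1.09, adjusted p = 0.0113). miR-660-3p had -1.97 (SE 0.54, adjusted p = 0.113) and -1.39 (SE 0.54, adjusted p = 0.289) in the same pairs, and miR-362-5p -0.72 (SE 0.27, adjusted p = 0.243) and -0.41 (SE 0.27, adjusted p = 0.502).

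Within a library, the share of each member in the cluster's reads does not depend on library scaling. miR-532-5p took 58.2% and 54.5% of the 10 members' reads in R1855L, 54.3% and 57.5% in R821H, 56.4% and 53.8% in R1003Q, and 40.3% and 49.3% in WT. The exact Clopper-Pearson 95% interval of the lowest mutant library, 51.3 to 56.3 in R1003Q replicate 2, did not reach that of WT replicate 2, 48.2 to 50.5. That of WT replicate 1, 38.2 to 42.4, did not reach it either, so such a gap also separates libraries of the same group. These shares and intervals treat reads as independent molecules and cover counting error only.

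The share of miR-188-5p was 3.59% (interval 3.1 to 4.13) and 4.76% (3.56 to 6.21) in R1855L, 7.55% (6.9 to 8.24) and 7.89% (6.68 to 9.25) in R821H, 8.76% (7.67 to 9.96) and 9.73% (8.3 to 11.3) in R1003Q, and 15.3% (13.8 to 16.9) and 9.87% (9.22 to 10.6) in WT. The R1855L intervals lay below those of every other library. Both R1003Q intervals and that of R821H replicate 2 overlapped that of WT replicate 2, and WT replicate 1 stood above all others. A share also falls where another member takes more of the reads, and miR-532-5p took 53.8% of them or more in each mutant library. miR-660-5p took 25.6% and 21.1% in R1855L, 25.2% and 21.0% in R821H, 20.9% and 20.8% in R1003Q, and 25.4% and 26.8% in WT. With 2 libraries against 2, the smallest p of an exact two-sided permutation test is 0.333, so the shares were not tested.

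**Figure D4:**
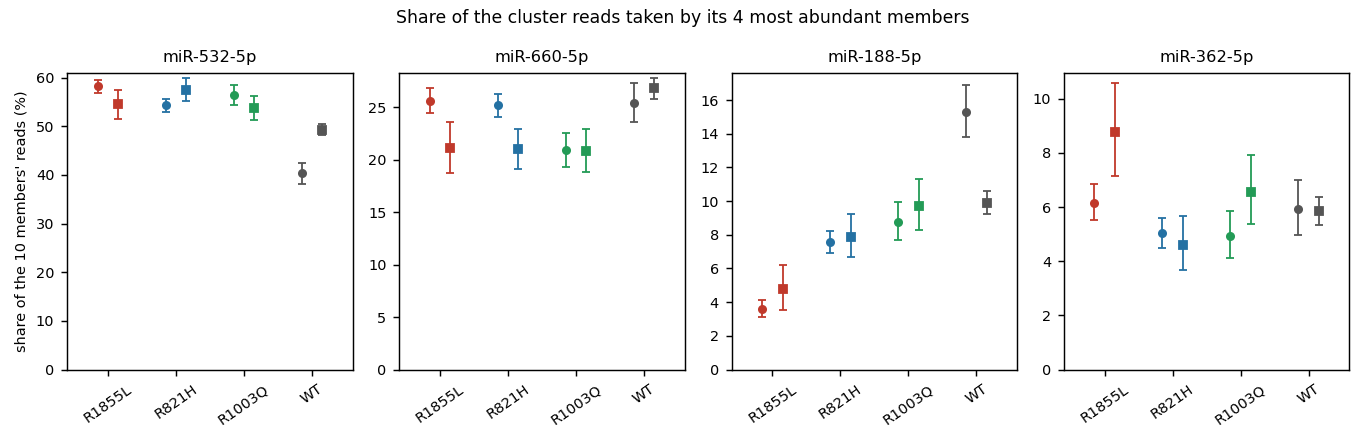
Share of the 10 members' reads taken by the 4 most abundant members in each library, in percent, with circles for replicate 1, squares for replicate 2 and bars for the exact Clopper-Pearson 95% interval. miR-532-5p takes 53.8% to 58.2% in the mutant libraries and 40.3% and 49.3% in WT, and miR-188-5p 3.59% and 4.76% in R1855L.

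The hairpins of the cluster differ in how one-sided their strands are. In WT the 5p strand made up 94.5% ± 2.34 of the reads of miR-532 (SD, n = 2), 97.6% ± 1.64 of miR-188 and 97.7% ± 1.07 of miR-660. It made up 61.8% ± 3.37 of miR-362, 53.5% ± 8.06 of miR-500a, 58.4% ± 4.83 of miR-501 and 35.2% ± 9.64 of miR-502. The 5p counts of miR-500a and miR-500b are nearly the same, while their 3p strands were counted apart. The 5p reads of miR-500a may therefore not come from MIR500A alone, and its share and ratio are uncertain. The strand ratio is given as log2 of the 5p to the 3p reads, each raised by 0.5, and it was tested with limma in 174 hairpins, 7 of them from the cluster.

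No strand ratio of the cluster was called in any mutant against WT. In R1855L limma called 0 of 7, where 7.47% of the 174 hairpins were called, and 1 of the 7 had an unadjusted p under 0.05, as did 35 of the 174. In R821H and in R1003Q it called 0 of 7 and 0% of all hairpins, and the members with an unadjusted p under 0.05 numbered 1 in R821H and 0 in R1003Q, beside 3 and 8 of the 174. How many of the 174 hairpins had libraries that did not overlap was not counted. Such placements of libraries are therefore given below without a background. The comparisons with WT all use the same pair of WT libraries.

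The miR-532 ratio was 5.81 and 4.98 in R1855L, 4.70 and 4.79 in R821H, 4.79 and 4.36 in R1003Q, and 3.70 and 4.66 in WT. Both R1855L libraries were above the other 6, and R1003Q overlapped WT. The change in R1855L was 1.22 toward 5p (SE 0.44, limma adjusted p = 0.168), and it was 0.74 without WT replicate 1, 0.80 without R1855L replicate 1 and 1.70 without WT replicate 2. With the depth term it passed at 1.22 (adjusted p = 0.00462), in a fit that called 32 of all 174 hairpins. It is the sum of a 5p strand above and a 3p strand below WT.

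The miR-188 ratio was lower in the mutant libraries, without passing the test. It was 4.66 and 3.88 in R1855L, 4.19 and 3.60 in R821H, 3.98 and 4.33 in R1003Q, and 6.19 and 4.75 in WT. All 6 mutant libraries were below both WT libraries, WT replicate 1 standing apart on a 3p count of 4 reads. The R1855L ratios rest on 3p counts of 7 and 3 reads, and R1855L replicate 1 lay close to WT replicate 2. None of the changes passed: -1.20 for R1855L (limma adjusted p = 0.318), -1.58 for R821H (adjusted p = 0.862), and -1.32 for R1003Q (adjusted p = 0.787), each with an SE of 0.60. Without WT replicate 1 they were -0.48, -0.85 and -0.59 in R1855L, R821H and R1003Q. Leaving out WT replicate 2 left too few 3p reads for a fit. By strand, the log2 fold change in R1855L against WT was -1.26 for miR-188-5p and -0.445 for miR-188-3p. In R821H and R1003Q it was -0.47 and -0.15 for miR-188-5p, and 0.89 and 0.95 for miR-188-3p.

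For miR-660, R821H and R1003Q stood above R1855L. Its ratio was 5.47 and 4.30 in R1855L, 7.20 and 6.07 in R821H, 5.74 and 6.52 in R1003Q, and 4.96 and 5.999 in WT. The R821H libraries were above both R1855L and both WT libraries, and R1003Q was above R1855L. No ratio of the 7 was called between mutants, beside calls in 6.32% of all hairpins for R821H against R1855L, 7.47% for R1003Q against R1855L and 0% for R1003Q against R821H. An unadjusted p under 0.05 was reached by miR-660 in R821H against R1855L, where 32 of 174 hairpins reached it, by miR-500a in R1003Q against R1855L (-1.08, SE 0.46), where 26 of 174 did, and by none of the 7 in R1003Q against R821H, where 2 of 174 did. The miR-660 ratio differed by 1.75 in R821H against R1855L (SE 0.62, limma adjusted p = 0.151) and by 1.25 in R1003Q against R1855L (SE 0.62, adjusted p = 0.366). These ratios rest on 3p counts between 3 and 32 reads. With 5 reads added to each strand in place of 0.5 the differences were 1.40 and 0.71, and without R1855L replicate 2 they were 1.17 and 0.66. Both passed with the depth term, at 1.75 and 1.80 (adjusted p = 0.00101 and 0.00236), in fits that called 39 and 28 of all 174 hairpins.

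The hairpins with more even strands had no called change either. The miR-500a ratio was 1.42 and 0.97 in R1855L, 0.56 and 0.70 in R821H, -0.24 and 0.46 in R1003Q, and -0.13 and 0.54 in WT, with a change of 0.99 (SE 0.46, limma adjusted p = 0.263) in R1855L against WT. The miR-501 ratio was 1.21 and 0.95 in R1855L, 1.52 and 1.17 in R821H, 1.75 and 0.95 in R1003Q, and 0.29 and 0.69 in WT. All 6 mutant libraries lay above the same pair of WT libraries there, with changes of 0.59, 0.85 and 0.86 in R1855L, R821H and R1003Q (SE 0.47 each). None of these changes passed, and no share of all hairpins stands beside this placement. In R1855L miR-362 changed by 0.52 (SE 0.41), miR-502 by 0.39 (SE 0.48) and miR-660 by -0.60 (SE 0.62), and the smallest limma adjusted p of these 3 was 0.6.

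**Figure D5:**
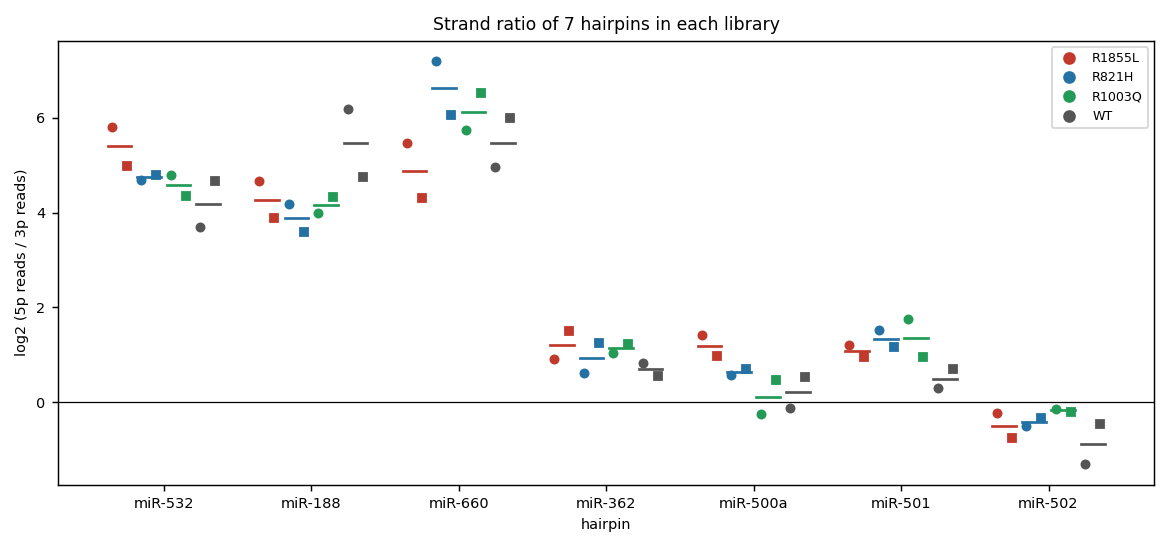
Log2 ratio of 5p to 3p reads (0.5 reads added to each) of 7 hairpins in each library, with circles for replicate 1, squares for replicate 2 and a line at the mean. The ratios of miR-532, miR-188 and miR-660 lie between 3.60 and 7.20 and those of the other hairpins between -1.32 and 1.75, and both R1855L libraries stand highest for miR-532.

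Profiles over the libraries were compared by their likeness. It was measured as the root mean square difference of log2 CPM, each name centred on its own mean over the 8 libraries, among 330 names outside the cluster with a mean of at least 50 CPM. For miR-532-5p the nearest outside names were miR-573 (0.126), miR-148a-5p (0.127) and miR-30d-5p (0.143), beside a median of 0.484 over the 330. Among the other 9 members, which are fewer and had no minimum level, so that the nearest values cannot be set against each other, miR-660-5p (0.268), miR-502-3p (0.328) and miR-362-5p (0.333) were nearest, and its own partner strand miR-532-3p was at 0.552. miR-660-5p had miR-548b-3p (0.094), miR-450a-5p (0.102) and miR-9-3p (0.130) nearest.

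For miR-188-5p, a choice made after its values were seen, the nearest outside names were miR-23b-3p (0.169), miR-429 (0.173) and miR-877-5p (0.185), beside a median of 0.65 over the 330. The nearest member was miR-532-3p (0.261), the 3p strand of the neighbouring hairpin, and miR-532-5p was at 0.734.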

How the data were processed

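Estimated counts per mature miRNA name were deposited by the authors for each of 8 libraries, not scaled and not pooled. The submitters' processing notes name cutadapt, BWA, bedtools, hg38 and mm10, and no source used here gives their versions, their roles or the miRNA annotation. A name that a library does not list was taken as 0. Fractional values were held by 19 to 33 names of each library.

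Counts were rounded and tested with edgeR 4.0.16 (R 4.3.3): filterByExpr, TMM, and a robust quasi-likelihood fit to all 8 libraries with group in the model, with Benjamini-Hochberg adjustment over 625 names and a threshold of 0.05. SE is the absolute log2 fold change over the square root of F. Strand ratios used limma 3.58.1 over 174 hairpins whose strands each had 80 reads or more in total (robust, with a trend on mean log reads). Alternatives included DESeq2 1.42.0, other scalings and filters, a replicate block, a depth term and left-out libraries. The 10 members are all named; other hairpin strands and the nearest profiles follow a set rule, and miR-188-5p was added to these after its values were seen. Members and lists were chosen with earlier results of these data known. Intervals cover counting error only. Figures: matplotlib 3.10.9.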

Additional observations from a re-analysis of the deposited data

How the results depend on the processing

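The number of members called in R1855L against WT was 1, and it was 0 with total counts, 0 with the replicate block, 0 with only the 4 libraries compared and 3 with the depth term (miR-188-5p, miR-532-5p and miR-362-5p), which called 28.3% of all names. On leaving out single libraries it was between 0 and 1. R821H against R1855L had 3 with the depth term (18.2% of all names) and R1003Q against R1855L had 2 with it (14.9%), 1 by DESeq2 (6.4%) and 1 with the filter at 50 CPM (7.1%), against 0 in each. Of the strand ratios, 1 was called with the depth term in R1855L against WT, 1 in R821H against R1855L and 1 in R1003Q against R1855L, beside 18.4%, 22.4% and 16.1% of all hairpins. Without R821H replicate 1 or without WT replicate 2 the miR-188 ratio had too few 3p reads to be fitted. The log2 fold change of miR-188-5p in R1855L against WT lay between -1.499 and -1.092 over the left-out libraries. The cause of these changes was not tested.

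Some signs turned. Over the left-out libraries in R1855L against WT, miR-500a-3p ran from -0.51 to 0.19, miR-188-3p from -0.82 to 0.34, miR-660-5p from -0.30 to 0.47, miR-501-3p from -0.387 to 0.575 and the miR-502 ratio from -0.037 to 0.817. In R1003Q against WT miR-188-5p ran from -0.402 to 0.016 and miR-362-5p from -0.035 to 0.384. miR-501-3p in R1855L was -0.029 with no filter. The cause was not tested. Of 419 alternative values of single levels and 207 of single strand ratios, 8 and 1 changed sign. With total counts, the median over all names of the shift in log2 fold change was -0.13 in R821H against WT. It was -0.14 in R821H against R1855L and 0.11 in R1003Q against R821H.

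Over all names, calls in R1855L against WT ran from 2 to 177 around 36, in R821H against R1855L from 6 to 114 around 24, in R1003Q against R1855L from 2 to 93 around 23, in R821H against WT from 0 to 16 around 0 and in R1003Q against WT from 0 to 2 around 0. Called strand ratios ran from 3 to 32 around 13, from 1 to 39 around 11 and from 1 to 28 around 13 in the first 3 of these.

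The replicate number was not taken to pair libraries. Same-numbered deviations correlated at -0.69 in R1855L against WT, -0.68 in R821H against WT, 0.09 in R1003Q against WT, 0.56 in R821H against R1855L, 0.02 in R1003Q against R1855L and -0.12 in R1003Q against R821H. With the replicate block no member was called in any comparison and 0 of 7 strand ratios. With crossed numbers, chosen after seeing the data, miR-188-5p passed in R1855L against WT (log2 -1.25, edgeR adjusted p = 0.0114). The miR-532 ratio passed there too (1.22, limma adjusted p = 0.0108), and no other member or ratio did. In R821H against WT and R1003Q against R821H none passed. For the comparisons with WT this block put the deep libraries together with R1003Q replicate 1, so it was close to the depth term. Calls over all names in these fits are not given here.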
